A study of Danio rerio with 32 samples.

Results

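The comparison described here set Bach1 double knockout larvae (Bach1 DKO) against wild type larvae (WT), which is 8 of the 32 RNA-seq libraries of the series, and was followed across all 14108 genes that passed the filter on low counts, of 16039 rows with a gene identifier. Members were chosen by label alone: 4 Bach1 DKO pools and 4 WT pools, each made from 10 zebrafish larvae taken whole at 7 days post fertilization. Bach1 DKO larvae came from a line in which both zebrafish Bach1 paralogs, bach1a and bach1b, carry CRISPR/Cas9-made stop mutations, held on a background with a gstp1:EGFP reporter of Nrf2 activity and an mCherry reporter of hepatocyte nuclei. WT larvae bear no label of an injection, and the sources used here do not say whether they were mock injected or which reporters their pools carried. Below, uninjected or without injection means only that pools are not labelled as injected against keap1a and keap1b. Used beside them were Bach1 DKO crkeap1a/b, which are Bach1 DKO larvae injected at the single-cell stage with CRISPR/Cas9 against keap1a and keap1b and therefore mosaic for those edits, crkeap1a/b, which are larvae without the Bach1 mutations injected in the same way, and Nrf2 KO, a line with a mutated nfe2l2a, each with 4 pools of 10. No label gives the batch, clutch or hour of collection of a pool, so the Bach1 mutations cannot be told apart from other differences between the Bach1 DKO line and WT or between their handling. By the methods of the study, larvae and their controls were clutch siblings, but no source says which pools shared a clutch. Because no source states separate clutches for replicate pools, p-values measure the spread between pools. That spread was estimated for each gene over all 32 libraries of the series, not over the 8 compared alone.

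Bach1 is a transcriptional repressor of the cap'n'collar (CNC) family. Paired with a small Maf protein it occupies the antioxidant response element that the activator Nrf2, itself held back by Keap1, also uses. Heme binds Bach1, releases it from DNA and leads to its degradation, and in mammals the gene for heme oxygenase 1, which breaks heme down to biliverdin, iron and carbon monoxide, is its best known target. Genes of heme handling, iron storage and glutathione synthesis are among the targets that Bach1 and Nrf2 share in mammals. Whole larvae hold all of these tissues at once, so each value is an average over eye, muscle, skin, liver and blood.

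Libraries were made with a kit that reads transcripts at their 3′ ends, so levels do not scale with gene length. Total counts per library were 3464165 to 3750455 in Bach1 DKO pools and 3982557 to 4375959 in WT pools, of which 40.1 to 42.6% and 36.6 to 39.5% lay in rows with no gene identifier and were left out. Levels are given in CPM (counts scaled to a library of 1000000) of the remaining counts, scaled by TMM factors, and 3 counts in 1 library, taken as the detection floor, correspond to 1.29 CPM in Bach1 DKO and 1.11 CPM in WT pools on average. In a principal component analysis of all 32 libraries the first component held 22.8% of the variance and placed the 4 Bach1 DKO pools between -28.3 and -23.9 and the 4 WT pools between 9.9 and 18.4. No pool of either group stood apart from its group on this component. Fold changes are given as log2 of Bach1 DKO over WT with their standard error (SE). Each adjusted p comes from limma-voom with Benjamini-Hochberg adjustment over all 14108 genes, a gene being called below 0.05.

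The mutated genes themselves were read first. A stop mutation need not remove the transcript that a 3′ read counts, so these levels check the labels only in part. bach1a had 5.69, 8.41, 5.79 and 5.75 CPM in the 4 Bach1 DKO pools, against 14.7, 11.7, 9.717 and 10.1 CPM in the 4 WT pools. bach1b had 41.6, 47.6, 36.1 and 52.2 CPM in Bach1 DKO, against 20.2, 30.02, 17.99 and 17.7 CPM in WT. The pools of the lines did not overlap for either gene. The paralogs went opposite ways: bach1a was lower (log2 fold change -0.81, SE 0.301, adjusted p = 0.046) and bach1b was higher (1.07, SE 0.19, adjusted p = 7.6e-05). The call of bach1a rested on few counts and was lost in 6 of the 8 fits that left out 1 pool (all but those without Bach1 DKO replicate 2 or WT replicate 3). In these 8 fits its log2 fold change lay between -0.95 and -0.69 and its adjusted p reached 0.13. The call of bach1b held in all 8 of them.

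Of 11 tested members of a list of CNC factors, Keap1 and small Maf proteins, 3 were called higher and 2 lower in Bach1 DKO, against 23.4% of all genes called (11.8% higher and 11.6% lower). keap1a, one of the paralogs that mark Nrf2 for degradation, rose to 27.1, 26.02, 30.7 and 32.8 CPM in Bach1 DKO, against 16.5, 14.4, 19.4 and 15.9 CPM in WT (log2 fold change 0.81, SE 0.18, adjusted p = 0.00099), and its pools did not overlap. keap1b lay on the other side with 26.7, 21.6, 24.95 and 24.8 CPM in Bach1 DKO and 29.3, 36.7, 34.9 and 31.4 CPM in WT, but was not called (-0.43, SE 0.23, adjusted p = 0.19). Its pools did not overlap either, and keap1b was called when only the pools compared were fitted (adjusted p = 0.045). nfe2l2a, the gene of the main zebrafish Nrf2, was at 332 ± 16.8 CPM in Bach1 DKO and 423 ± 58.8 CPM in WT (SD, n = 4 each), a call (-0.34, adjusted p = 0.034) that was lost in 5 of 8 fits without 1 pool (without Bach1 DKO replicate 2, 3 or 4 or WT replicate 2 or 4), with an adjusted p of up to 0.18. Its paralog nfe2l2b had 9.8 ± 0.774 CPM in Bach1 DKO and 7.18 ± 1.62 CPM in WT and was not called (adjusted p = 0.19). bach2a, a related CNC repressor, was called higher (0.65, adjusted p = 0.035). This call was lost in 6 of 8 such fits (all but those without Bach1 DKO replicate 2 or WT replicate 3, adjusted p up to 0.091).

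**Figure D1:**
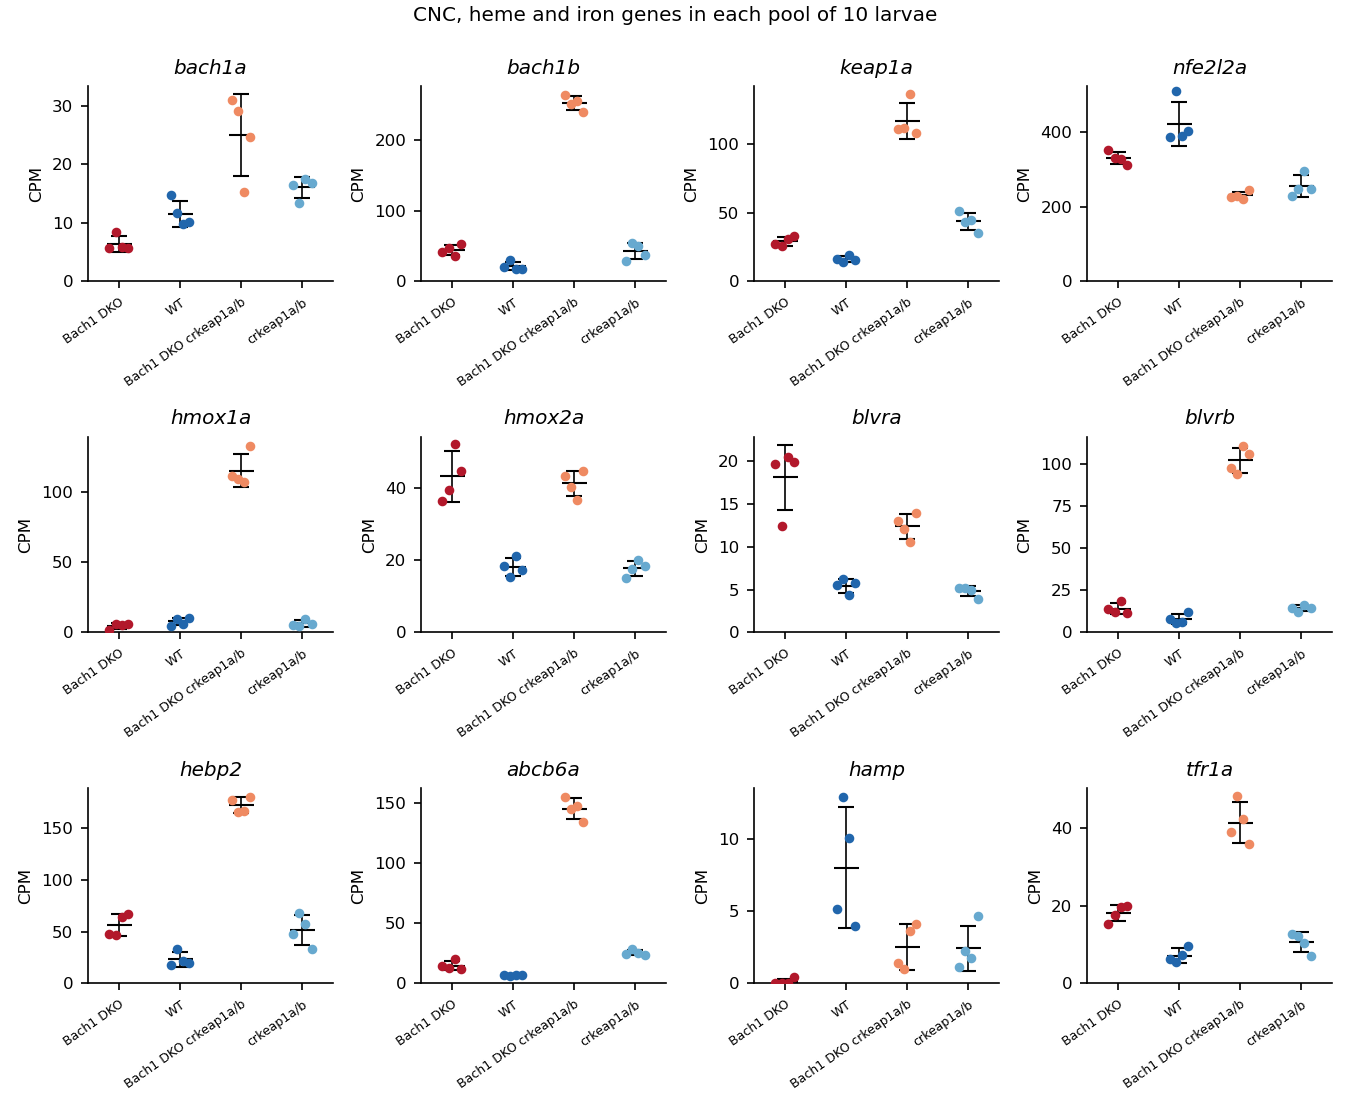
Each panel shows the level of a CNC, heme or iron gene in CPM (vertical axis, from 0) in every pool of 10 larvae (points) of Bach1 DKO, WT, Bach1 DKO crkeap1a/b and crkeap1a/b, with the mean and SD of the 4 pools in black. hmox2a, blvra and hebp2 lie higher in Bach1 DKO than in WT without overlap, whereas hmox1a overlaps between these groups and reaches 115 ± 11.8 CPM (SD, n = 4) in Bach1 DKO crkeap1a/b.

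Of 5 heme breakdown genes 3 were called higher and 1 lower (80%, beside 23.4% of all genes). Their median log2 fold change was 0.87, beside 0.01 over all genes tested. The gene not called was hmox1a, which codes for heme oxygenase 1. It had 1.75, 5.603, 4.901 and 5.75 CPM in Bach1 DKO, against 4.77, 9.75, 6.12 and 10.5 CPM in WT, and was not called (-0.797, SE 0.38, adjusted p = 0.13). Its pools overlapped, and no Bach1 DKO pool exceeded the WT range. hmox2a, a constitutive heme oxygenase, had 36.3, 39.2, 52.1 and 44.7 CPM in Bach1 DKO, against 18.3, 15.2, 21.2 and 17.3 CPM in WT (1.24, SE 0.203, adjusted p = 2.9e-05). Every Bach1 DKO pool lay above every WT pool for hmox2a.

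The biliverdin reductases, which turn biliverdin into bilirubin, were also higher. blvra had 19.7, 12.4, 20.5 and 19.9 CPM in Bach1 DKO, against 5.501, 6.24, 4.32 and 5.78 CPM in WT (1.68, SE 0.28, adjusted p = 3.7e-05). Every Bach1 DKO pool lay above every WT pool for this gene too. blvrb had 14.01, 12.01, 18.7 and 11.5 CPM in Bach1 DKO, against 7.702, 5.46, 6.12 and 11.9 CPM in WT (0.87, SE 0.26, adjusted p = 0.014), with 1 WT pool inside the Bach1 DKO range. Its call was lost without Bach1 DKO replicate 3 or WT replicate 2 (adjusted p up to 0.059). hmox2b, the paralog of hmox2a, went the other way at 19.6 ± 5.64 CPM in Bach1 DKO and 29.7 ± 3.997 CPM in WT (-0.61, adjusted p = 0.032). This call was lost in 5 of 8 fits without 1 pool (without Bach1 DKO replicate 1, 3 or 4 or WT replicate 2 or 4), with an adjusted p of up to 0.15. The summed level of the 5 genes was 92.8 to 110.1 CPM in Bach1 DKO pools and 62.3 to 80.9 CPM in WT pools.

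Of 8 heme synthesis genes 1 was called (12.5%, against 23.4% of all genes). fech, the ferrochelatase that places iron into the porphyrin ring, was higher at 24.5, 17.2, 25.4 and 29.7 CPM in Bach1 DKO, against 9.902, 18.3, 11.9 and 11.6 CPM in WT (0.91, SE 0.22, adjusted p = 0.0025), with 1 WT pool inside the Bach1 DKO range. alas1, the first and rate-setting enzyme, had 218, 245, 185 and 201 CPM in Bach1 DKO and 274, 269, 174 and 203 CPM in WT and was not called (-0.097, adjusted p = 0.77). In the list of heme transport 2 of 8 were higher and 1 lower. hebp2, a heme-binding protein, had 47.3, 46.8, 63.7 and 66.8 CPM in Bach1 DKO, against 17.97, 33.1, 21.6 and 19.5 CPM in WT (1.31, SE 0.21, adjusted p = 2.3e-05). abcb6a, a porphyrin transporter, had 14.4, 12.4, 20.05 and 11.95 CPM, against 6.601, 5.85, 7.198 and 6.86 CPM in WT (1.098, SE 0.28, adjusted p = 0.0038). Neither gene overlapped between the lines. slc25a38b, a mitochondrial glycine carrier needed for heme synthesis, fell to 7.41 ± 1.18 CPM in Bach1 DKO, against 16.96 ± 6.87 CPM in WT (-1.11, adjusted p = 0.007). The heme exporter flvcr1 (0.01, adjusted p = 0.98) and the heme transporter slc48a1a (0.47, adjusted p = 0.13) were not called. slc48a1a was called with only the pools compared or with sample quality weights (adjusted p down to 0.0094).

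Among 23 tested genes of iron storage and transport 3 were higher and 4 lower (30.4%, beside 23.4% of all genes), and the median was -0.01. The number lower was 2 in the fits without Bach1 DKO replicate 3 or 4 or WT replicate 1 or 2. hamp, the gene of hepcidin, the hormone that blocks iron export from cells, gave 1 count in all 4 Bach1 DKO pools together and 86 counts in the 4 WT pools, or 5.13, 12.9, 10.1 and 3.97 CPM. It was the member of the list with the largest fitted change: the rate in WT was 73.7 times that in Bach1 DKO, with an exact 95% interval of 12.9 to 2943 that covers counting error only (adjusted p = 0.00015). hjv, which codes for hemojuvelin, a co-receptor upstream of hepcidin, had 31.95, 40.02, 22.7 and 31.4 CPM in Bach1 DKO, against 12.5, 7.798, 13.7 and 11.2 CPM in WT (1.47, SE 0.31, adjusted p = 0.00069). Genes of iron uptake and sensing rose as well: tfr1a, a transferrin receptor, had 15.3, 17.6, 19.6 and 19.9 CPM in Bach1 DKO, against 6.24, 5.46, 7.198 and 9.75 CPM in WT (1.34, adjusted p = 0.002). aco1, the cytosolic aconitase that doubles as an iron regulatory protein, had 61.3, 69.6, 77.1 and 91.6 CPM, against 28.97, 33.9, 39.2 and 35.7 CPM in WT (1.11, adjusted p = 0.0033). tfr1b was not called (0.53, adjusted p = 0.09). It was called with only the pools compared or without Bach1 DKO replicate 3 (adjusted p down to 0.045). The pools of hamp, hjv, tfr1a and aco1 did not overlap between the lines.

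No ferritin gene, which codes for the iron storage shell, was called higher. fthl27 had 574, 509.9, 615 and 509 CPM in Bach1 DKO, against 1037, 1146, 782 and 873 CPM in WT (-0.79, SE 0.16, adjusted p = 0.0004). fth1a, the other abundant heavy chain gene, had 609.5 ± 20.6 CPM in Bach1 DKO and 747 ± 66.6 CPM in WT and was not called (-0.29, adjusted p = 0.18). It was called lower when only the pools compared were fitted (adjusted p = 0.018). The iron exporter slc40a1 did not differ beyond the spread between pools (-0.04, adjusted p = 0.86). Zebrafish ferritins form a family of near copies, and how reads shared between copies were counted is not stated, so values of single members are uncertain.

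Genes of the glutathione and thioredoxin systems moved in both directions. Of 11 genes of glutathione synthesis and recycling 1 was higher and 3 lower (36.4%, beside 23.4% of all genes), with a median of 0.10. gclc, the catalytic subunit of the enzyme that starts glutathione synthesis, had 46.8, 37.6, 48.6 and 47.8 CPM in Bach1 DKO, against 63.8, 88.1, 57.2 and 67.5 CPM in WT (-0.6, SE 0.14, adjusted p = 0.0022). slc3a2b, the heavy chain of several amino acid transporters including the one for cystine, had 155, 143, 185 and 191 CPM in Bach1 DKO, against 245, 325, 268 and 268 CPM in WT (-0.72, SE 0.14, adjusted p = 0.00026). Both were lower in every Bach1 DKO pool than in any WT pool. ggt1b, which breaks extracellular glutathione down, was the gene that rose (1.57, adjusted p = 0.0078), at 5.61 ± 1.195 CPM in Bach1 DKO and 2.11 ± 1.64 CPM in WT. The regulatory subunit gclm had 7.45 ± 2.11 CPM in Bach1 DKO and 5.21 ± 2.04 CPM in WT (adjusted p = 0.23). Glutathione reductase gsr had 3.85 ± 1.24 CPM and 4.03 ± 2.6 CPM (adjusted p = 0.82), and the cystine transporter slc7a11 3.12 ± 1.26 CPM and 2.86 ± 0.845 CPM (adjusted p = 0.91). At these low levels a change of moderate size may have been missed, which was not tested.

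The thioredoxin and peroxiredoxin list held 4 higher and 2 lower genes of 13 (46.2%, beside 23.4% of all genes). prdx6, a peroxiredoxin that reduces lipid peroxides, had 29.3, 39.6, 43.7 and 34.5 CPM in Bach1 DKO, against 19.4, 20.7, 16.6 and 17.3 CPM in WT (0.98, SE 0.24, adjusted p = 0.0024). txnipb, a thioredoxin inhibitor, had 21.5, 28.4, 24.95 and 30.98 CPM, against 11.7, 9.36, 12.96 and 9.02 CPM in WT (1.29, SE 0.24, adjusted p = 0.00016). prdx1 was lower with 14.01, 28.4, 18.7 and 13.7 CPM in Bach1 DKO and 39.6, 61.2, 22.3 and 36.8 CPM in WT (-1.04, adjusted p = 0.0089, or 0.052 without WT replicate 2). srxn1, the sulfiredoxin that repairs peroxiredoxins, had 6.13, 4.002, 6.24 and 5.75 CPM in Bach1 DKO, against 15.4, 11.7, 14.04 and 11.9 CPM in WT (-1.25, adjusted p = 0.015, or 0.059 without Bach1 DKO replicate 2). The thioredoxin reductase txnrd3 was not called (0.13, adjusted p = 0.6). Among dismutases, catalase and glutathione peroxidases 2 of 9 rose and 3 fell (55.6% called, beside 23.4% of all genes). cat, the catalase gene, had 111, 105, 111 and 127 CPM in Bach1 DKO, against 54.3, 37.04, 53.3 and 78.7 CPM in WT (1.07, SE 0.16, adjusted p = 9.4e-06). sod1 rose (0.66, adjusted p = 0.01). The glutathione peroxidase genes gpx3 (-0.95, adjusted p = 0.002) and gpx9 (-0.76, adjusted p = 0.0034) fell, and mitochondrial sod2 was not called (0.097, adjusted p = 0.71).

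Several conjugation and export genes rose, where 11.8% of all genes were called higher and 11.6% lower. In a list of quinone and carbonyl reduction genes and other Nrf2 targets 6 of 15 were higher and 1 lower, with a median of 0.54. The summed level of this list overlapped, with 582 to 659 CPM in Bach1 DKO and 511.5 to 737 CPM in WT. abcc2, an exporter of glutathione and bilirubin conjugates, had 53.8, 61.2, 53.5 and 56.2 CPM in Bach1 DKO, against 15.04, 7.41, 14.8 and 16.97 CPM in WT (2.09, SE 0.26, adjusted p = 3.3e-07). abcc1, a related exporter, had 38.5, 38.02, 33.4 and 40.3 CPM, against 20.5, 21.8, 23.03 and 15.5 CPM in WT (0.903, adjusted p = 0.00065). sqstm1, the autophagy receptor that also binds Keap1, was lower at 139, 132, 138 and 151 CPM in Bach1 DKO and 190, 326, 171 and 182 CPM in WT (-0.58, adjusted p = 0.0065, or 0.066 without WT replicate 2). Of 15 glutathione S-transferases 3 were higher, including mgst3a at 57.3 ± 8.44 CPM in Bach1 DKO and 27.3 ± 7.696 CPM in WT (1.09, adjusted p = 0.0017) and gsto2 (0.98, adjusted p = 0.0038), and 2 were lower, including gstm.1 (-1.11, adjusted p = 0.0005). These calls were 2 higher and 2 lower in the fits without Bach1 DKO replicate 1 or 4 or WT replicate 1, 2 or 3. The summed level of this list was 409 to 468 CPM in Bach1 DKO and 329 to 376 CPM in WT. Cytochrome P450 genes gave 10 higher and 4 lower calls of 43. Among those higher were cyp2ad6 (1.32, adjusted p = 7.1e-07) and cyp27c1 (1.77, adjusted p = 0.00028), which makes the 3,4-didehydro form of vitamin A. Among those lower were the vitamin D hydroxylase gene cyp24a1 (-0.72, adjusted p = 0.0006) and cyp46a1.3 (-1.85, adjusted p = 0.00036). UDP-glucuronosyltransferases had 2 higher calls of 11, ugt5a5 among them (1.15, adjusted p = 0.011), a share of 18.2% beside 23.4% of all genes called. NADPH supply had 3 higher calls of 7, with malic enzyme me2 (0.86, adjusted p = 0.00093) and transketolase tkta (0.47, adjusted p = 0.0038), but a list median of -0.10. The summed level of this list was higher with no overlap, at 745 to 798 CPM in Bach1 DKO and 636 to 708 CPM in WT. pgd, a dehydrogenase of the pentose phosphate pathway, had 0 counts in all 4 Bach1 DKO pools, but only 14 counts in the 4 WT pools, and was not called (adjusted p = 0.22). It was called with edgeR's quasi-likelihood test and with DESeq2.

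Across all genes, 3304 of 14108 (23.4%) were called, 1669 higher and 1635 lower in Bach1 DKO, and 1255 of them (8.90% of genes tested) differed at least 2-fold, 759 higher (5.38%) and 496 lower (3.52%). For 2774 of the called genes the 4 Bach1 DKO and 4 WT pools did not overlap, and 3879 genes in all (27.5%) had pools that did not overlap. The smallest adjusted p among genes that rose belonged to ATP8, a short mitochondrial gene for an ATP synthase subunit, with 1117, 1155, 1594 and 1525 CPM in Bach1 DKO, against 208, 229, 229.6 and 265 CPM in WT (2.52, SE 0.15, adjusted p = 2.5e-14). It was followed by the lipocalin-type prostaglandin D synthase genes ptgdsb.2, with 235, 224, 303 and 351 CPM in Bach1 DKO, against 41.4, 37.8, 68.4 and 54.5 CPM in WT (2.47, adjusted p = 4.2e-13), and ptgdsb.1 (1.98, adjusted p = 5.2e-13). These are neighbouring near copies and may share reads. For ATP8, the limit on mitochondrial genes given below applies. Other leading genes were soul5, named for the SOUL family of heme-binding proteins, with 91.5, 111, 151 and 194 CPM in Bach1 DKO, against 15.8, 12.1, 20.5 and 18.8 CPM in WT (2.97, SE 0.24, adjusted p = 2e-11), wdr76, a WD-repeat gene (3.02, adjusted p = 5.1e-11), and cst3, which codes for cystatin C (1.53, adjusted p = 9.9e-11).

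Leading genes that fell were the chaperone gene hsp90aa1.2, ghitm, which codes for a protein of the inner mitochondrial membrane and had 49.9, 64.04, 74.4 and 53.99 CPM in Bach1 DKO, against 386, 388, 263 and 262 CPM in WT (-2.41, SE 0.22, adjusted p = 5.9e-10), and atp2a2a, a calcium pump of the sarcoplasmic reticulum (-1.71, adjusted p = 1.2e-08). vim, the vimentin gene, had 367, 326, 402 and 373 CPM in Bach1 DKO, against 847, 836, 723 and 785 CPM in WT (-1.12, adjusted p = 3.3e-07). Every Bach1 DKO pool lay below every WT pool for these genes.

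**Figure D2:**
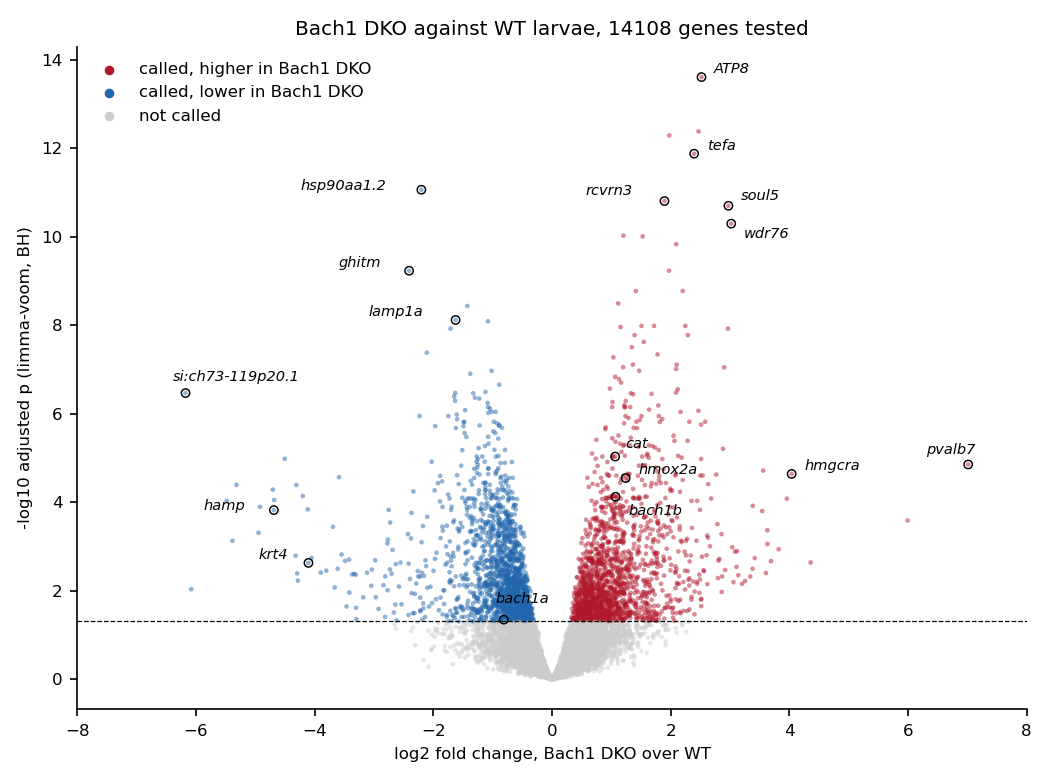
Each point is 1 of the genes tested, with the log2 fold change of Bach1 DKO over WT (horizontal axis) and -log10 of the limma-voom adjusted p (vertical axis), and the dashed line marks an adjusted p of 0.05. Calls fall on both sides in similar number, 1669 higher and 1635 lower, and the circled genes are described in the text.

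A few genes were silent in one line only, defined as no more than 3 counts over 4 pools in that line and at least 5 CPM in each pool of the other. In Bach1 DKO 4 genes met this rule. si:ch73-119p20.1 had 0 counts in Bach1 DKO, against 21.6, 15.99, 10.1 and 16.2 CPM in WT, which is at least 12.3-fold lower when the floor of 3 counts per library is taken for Bach1 DKO. txndc15, a thioredoxin domain protein, had 0 counts in Bach1 DKO, against 13.9, 13.7, 6.48 and 5.05 CPM in WT, at least 7.55-fold lower by the same floor. dennd4a, an activator of Rab proteins, had 2 counts in Bach1 DKO and 198 in WT, a ratio of WT to Bach1 DKO of 84.8 (exact 95% interval 23.2 to 705). tram1, a protein of the endoplasmic reticulum translocon, had 3 counts and 194 counts, a ratio of 55.4 (18.7 to 271). In WT 2 genes were silent. pvalb7, a parvalbumin, had 32.8, 38.8, 15.6 and 15.1 CPM in Bach1 DKO and 0 counts in WT, at least 23.1-fold higher. prph2b, a rim protein of photoreceptor discs, had 26.3, 24.8, 9.802 and 13.7 CPM in Bach1 DKO and 2 counts in the WT pools, a ratio of 102 (27.9 to 850). The intervals cover counting error only. All 6 genes differed in the same direction between Bach1 DKO crkeap1a/b and crkeap1a/b: si:ch73-119p20.1 and txndc15 again had 0 counts in Bach1 DKO crkeap1a/b, against 96 and 71 counts in crkeap1a/b. pvalb7 had 190 counts, against 0 counts. In Nrf2 KO pools, which are not labelled as Bach1 mutant, tram1 was also low with 8 counts, and pvalb7 and prph2b were also present with 298 and 146 counts. There dennd4a had 35 counts and si:ch73-119p20.1 44 counts, against 198 and 173 counts in WT, and txndc15 had 96 counts, against 105 in WT.

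Eye genes were called in both directions. Of 42 tested photoreceptor genes 18 were higher and 1 lower (45.2%, beside 23.4% of all genes), with a median of 0.73. Their summed level was 6462 to 7212 CPM in Bach1 DKO pools and 2638 to 4634 CPM in WT pools. rcvrn3, a recoverin, had 190, 187, 183 and 208 CPM in Bach1 DKO, against 55.7, 37.8, 49.3 and 66.4 CPM in WT (1.896, SE 0.15, adjusted p = 1.6e-11). The cone arrestin genes arr3b, with 76.2, 105, 91.3 and 120.4 CPM in Bach1 DKO, against 21.3, 17.2, 29.9 and 32.9 CPM in WT (1.97, adjusted p = 5.9e-10), and arr3a (2.101, adjusted p = 7.9e-08), and the rod arrestin gene sagb (2.203, adjusted p = 1.7e-09) moved by a similar factor. The pools of these 4 genes did not overlap. Lens genes went down: 17 of 38 were lower and 1 higher, with a median of -0.59, and their summed level was 19252 to 21609 CPM in Bach1 DKO and 30758 to 36467 CPM in WT. cryba1l1, a beta crystallin, had 952, 1065, 1067 and 965 CPM in Bach1 DKO, against 2710, 2444, 2265 and 2300 CPM in WT (-1.26, SE 0.198, adjusted p = 1.7e-05). cryba1l2 (-1.13, adjusted p = 5.4e-06), crygm2b (-1.97, adjusted p = 1.9e-06) and the beaded filament gene bfsp1 (-0.82, adjusted p = 5.4e-05) fell too. The exception was crygm2d10, with 190, 191, 183 and 224 CPM in Bach1 DKO, against 37.8, 53.03, 104 and 54.5 CPM in WT (1.76, adjusted p = 0.0014). It belongs to a large family of near-identical gamma crystallins, whose members the counting may not separate. In whole larvae fewer cells of a type and less RNA per cell cannot be told apart.

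**Figure D3:**
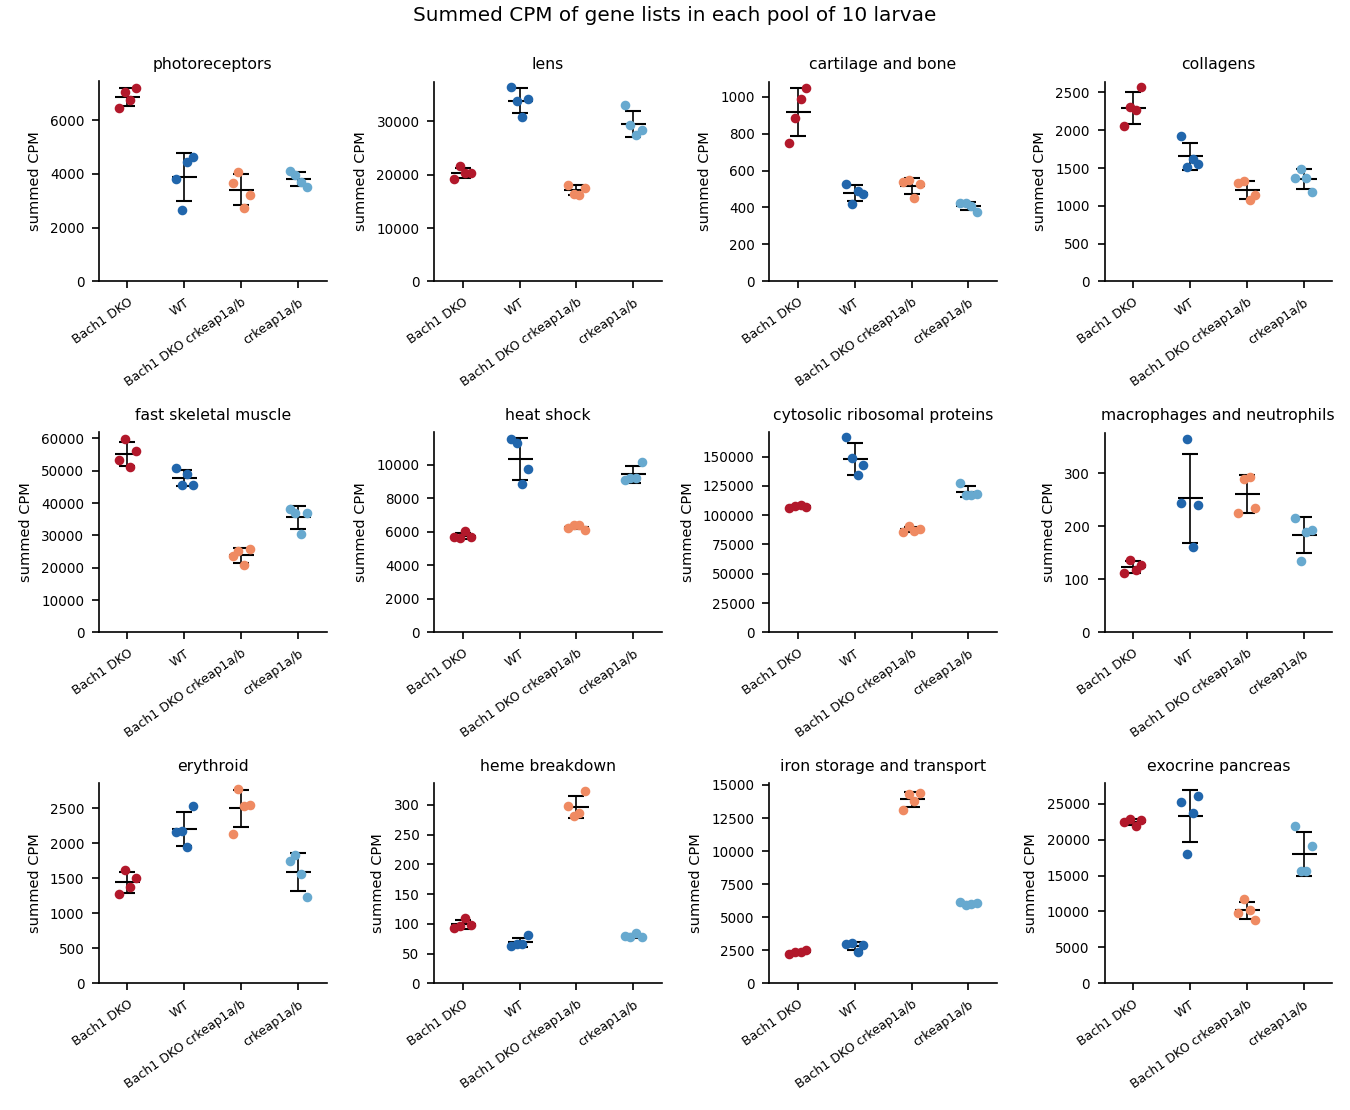
Each panel gives the summed CPM (vertical axis, from 0) of all members of a gene list in every pool (points) of Bach1 DKO, WT, Bach1 DKO crkeap1a/b and crkeap1a/b, with the mean and SD of 4 pools in black. Photoreceptor and cartilage and bone genes lie higher, and lens, heat shock and ribosomal protein genes lower, in Bach1 DKO than in WT with no overlap of pools. In the injected pair the photoreceptor sums overlap while the other 4 of these differences keep their direction with no overlap. Fast muscle sums lie higher, and erythroid and macrophage and neutrophil sums lower, in Bach1 DKO than in WT, and all turn over in the injected pair, with no overlap in either. Collagen and heme breakdown sums lie higher in Bach1 DKO with no overlap, and in the injected pair those of collagens overlap and those of heme breakdown stay higher. The heat shock sum in Bach1 DKO and WT is mostly hsp90ab1.

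Of 29 clock genes 9 were higher and 4 lower (44.8%, beside 23.4% of all genes), with a median of 0.13. tefa, a light-responsive transcription factor of clock output, had 161, 157, 161 and 184 CPM in Bach1 DKO, against 27.5, 23.8, 39.2 and 36.8 CPM in WT (2.396, SE 0.17, adjusted p = 1.3e-12). per2, a light-induced period gene, had 131, 115, 119 and 114 CPM in Bach1 DKO, against 43.3, 40.2, 50.8 and 45.5 CPM in WT (1.41, SE 0.14, adjusted p = 1.7e-09). cry5, a light-induced photolyase gene, had 43.3, 24.4, 42.8 and 36.7 CPM, against 15.8, 9.36, 8.997 and 7.94 CPM in WT (1.8, adjusted p = 1.1e-06). No WT pool reached a Bach1 DKO pool for these genes. per3 rose less (0.66, adjusted p = 0.0013). The Rev-erb family genes nr1d4a, with 7.004, 6.804, 3.56 and 3.98 CPM in Bach1 DKO, against 23.8, 15.99, 19.4 and 20.2 CPM in WT (-1.89, adjusted p = 9.7e-05), and nr1d1 (-1.09, adjusted p = 0.003) fell. In Nrf2 KO, per2 was at 17.4 ± 6.25 CPM and nr1d1 at 6.53 ± 2.51 CPM, and the WT values were 44.9 ± 4.46 CPM and 17.2 ± 3.26 CPM (SD, n = 4 each). The clock list as a whole had 1 higher and 12 lower calls between Nrf2 KO and WT, where 8.44% of all genes were called higher and 7.48% lower. No source used here gives the hour at which larvae of either line were collected.

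Chaperone and proteasome genes that were called were mostly lower. In the heat shock list 7 of 21 were lower and 1 higher (38.1%, beside 23.4% of all genes), with a median of -0.39. The summed level was 5646 to 6031 CPM in Bach1 DKO and 8867 to 11533 CPM in WT. hsp90aa1.2, an inducible Hsp90, had 45.1, 52.8, 42.8 and 44.7 CPM in Bach1 DKO, against 238, 238, 202 and 182 CPM in WT (-2.201, SE 0.17, adjusted p = 8.7e-12). Its neighbouring paralog hsp90aa1.1 had 33.3, 34.4, 34.3 and 19.9 CPM in Bach1 DKO, against 79.2, 135, 85.7 and 58.8 CPM in WT (-1.51, adjusted p = 6.7e-06). The abundant constitutive gene hsp90ab1 had 5039, 4971, 5396 and 5105 CPM, against 10540, 10170, 7994 and 8898 CPM in WT (-0.87, adjusted p = 1.3e-05). The summed level of the list was therefore mostly that of hsp90ab1. All 3 Hsp90 genes were lower in every Bach1 DKO pool than in any WT pool. The Hsp90 co-chaperone chordc1a (-2.11, adjusted p = 4.2e-08) and the Hsp40 gene dnajb1a (-1.28, adjusted p = 0.00043) fell with them, and hsf2, a heat shock transcription factor, was the member that rose, with 88.4, 81.7, 83.3 and 81.4 CPM in Bach1 DKO, against 46.6, 58.5, 39.2 and 54.5 CPM in WT (0.77, adjusted p = 1.5e-05).

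Of 36 proteasome genes, whose summed level overlapped between the lines, 10 were lower and 2 higher (33.3%, beside 23.4% of all genes). The leading ones code for lid subunits of the regulatory particle: psmd3 (-0.88, adjusted p = 0.00012), psmd11a (-0.89, adjusted p = 0.00013), psmd6 (-0.84, adjusted p = 0.00017) and psmd13 (-0.77, adjusted p = 0.00019), with psmd6 at 70.9, 63.2, 68.2 and 62.4 CPM in Bach1 DKO, against 143, 130.2, 108 and 97.1 CPM in WT. In the endoplasmic reticulum 4 of 18 chaperone genes were lower, with the calreticulin genes calr3a (-0.83, adjusted p = 0.0014) and calr3b (-0.98, adjusted p = 0.0029) in front, and 1 was higher. The share called in this list, 27.8%, was near the 23.4% of all genes. Its summed level was lower with no overlap, at 1013 to 1090 CPM in Bach1 DKO and 1159 to 1689.5 CPM in WT. The ATF4 list of amino acid stress genes had 6 lower and 2 higher calls of 22, but a median of 0.07, with 12 positive and 10 negative members. The summed level of this list was lower with no overlap, at 1826 to 2001.5 CPM in Bach1 DKO and 2121 to 2632 CPM in WT. atf4a, its transcription factor, had 122, 135, 150.2 and 151 CPM in Bach1 DKO, against 326, 317, 241 and 292 CPM in WT (-1.07, SE 0.16, adjusted p = 4.8e-06). pycr1b, an enzyme of proline synthesis, had 45.1, 47.6, 52.6 and 41.2 CPM, against 208, 181, 124 and 129 CPM in WT (-1.75, SE 0.23, adjusted p = 1.1e-06). The mTORC1 inhibitor ddit4 fell as well (-1.35, adjusted p = 8.3e-05). gpt2, an alanine transaminase, was higher (1.27, adjusted p = 0.0035). Immediate early genes had a share of calls near the 23.4% of all genes, with 4 of 20 lower and 1 higher, including atf3 (-1.29, adjusted p = 9e-05) and ier2a (-1.12, adjusted p = 0.00014). Their summed level was 529 to 761 CPM in Bach1 DKO and 836 to 981 CPM in WT, also with no overlap. The p53 response list had 2 lower and 1 higher calls of 14 (21.4%), no larger a share than among all genes.

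Lysosomal genes as a group did not move one way: 5 of 56 were higher and 6 lower, with a median of -0.16. The share called was 19.6%, beside 23.4% of all genes. Single members moved far. lamp1a, the main membrane glycoprotein of the lysosome, had 247, 221, 213 and 196 CPM in Bach1 DKO, against 844, 905, 511 and 526 CPM in WT (-1.62, SE 0.17, adjusted p = 7.7e-09), and no pools overlapped. ctsla, a cathepsin L, fell (-0.79, adjusted p = 0.00069), as did the galactosidase-like gene glb1l, at 2.08 ± 0.957 CPM in Bach1 DKO and 12.8 ± 8.72 CPM in WT (-2.43, adjusted p = 0.00053), and the phospholipase gene pla2g15 (-0.69, adjusted p = 0.0003). npc2.1, a cholesterol carrier of the lysosome lumen, rose (0.79, adjusted p = 0.011). In the autophagy list 6 of 29 were higher and 3 lower. map1lc3a, which codes for an LC3 protein of the autophagosome membrane, had 83.2, 86.9, 93.1 and 95.6 CPM in Bach1 DKO, against 34.1, 46.4, 51.5 and 40.4 CPM in WT (1.07, adjusted p = 4.3e-06), atg4b, its processing protease, rose (1.81, adjusted p = 0.00057) and atg16l1, part of the LC3 conjugation machinery, fell (-1.07, adjusted p = 1.7e-05).

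Fatty acid oxidation had 8 higher and 2 lower calls of 27 (37.0%, beside 23.4% of all genes), with a median of 0.36. angptl4, a lipase inhibitor (1.25, adjusted p = 0.00017), cpt1ab, the carnitine transferase that admits fatty acids to mitochondria (0.97, adjusted p = 0.0038), and the dehydrogenase genes acadm (0.91, adjusted p = 0.0044) and acadl (0.91, adjusted p = 0.0061) rose. pparaa, the nuclear receptor that drives this pathway, fell to 31.95, 32.02, 31.2 and 30.98 CPM in Bach1 DKO, against 53.5, 65.9, 46.1 and 60.3 CPM in WT (-0.82, adjusted p = 0.00045). Fatty acid synthesis had 3 higher calls of 7, led by acacb (1.33, adjusted p = 3.5e-07), an acetyl-CoA carboxylase. hmgcra, an HMG-CoA reductase of cholesterol synthesis, had 12.7, 13.2, 10.3 and 10.6 CPM in Bach1 DKO, against 0, 2.34, 3.24 and 0 CPM in WT (4.04, adjusted p = 2.3e-05). The size of its difference depended on single WT pools, with 3.36 without WT replicate 4, 3.37 without WT replicate 1 and 4.80 without WT replicate 3, and only 1 other gene of the 16 in that list was called. pck1, the gatekeeper of gluconeogenesis, had 472, 459, 389 and 522 CPM in Bach1 DKO, against 104, 166, 198 and 139.7 CPM in WT (1.63, SE 0.24, adjusted p = 5.2e-06). igfbp1b, which binds insulin-like growth factors, had 203, 223, 222 and 174 CPM, against 721, 889, 517 and 484 CPM in WT (-1.63, SE 0.202, adjusted p = 3.4e-07).

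Cytosolic ribosomal protein genes were lower in 29 of 75 cases and higher in 0, with a median of -0.43, and their sum was 106220 to 108670 CPM in Bach1 DKO pools and 134220 to 166500 CPM in WT pools. rplp1 had 3109, 3069, 3508 and 3399 CPM in Bach1 DKO, against 7679, 7145, 6330 and 5932 CPM in WT (-1.04, adjusted p = 0.00029), and rps9 fell by a similar factor (-1.004, adjusted p = 0.00034). The 71 nuclear genes of the respiratory chain split into 6 higher, such as ndufv1 (1.09, adjusted p = 2.5e-05), and 7 lower, such as atp5f1b (-0.74, adjusted p = 0.0042). This was a share of 18.3%, beside 23.4% of all genes called. Of the 13 protein genes of the mitochondrial genome 5 were called, all higher. Beside ATP8, ND5, a subunit of complex I, had 534, 543, 659 and 615 CPM in Bach1 DKO, against 261, 249, 243 and 265 CPM in WT (1.204, SE 0.103, adjusted p = 9.5e-11). ATP6, ND1 and COX2 rose less (0.68, 0.48 and 0.46), and the other 8 did not pass the test, with values between -0.24 and 0.10. These genes are read from polycistronic transcripts with closely spaced ends, so the count of a single one, ATP8 included, need not give the level of its transcript.

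**Figure D4:**
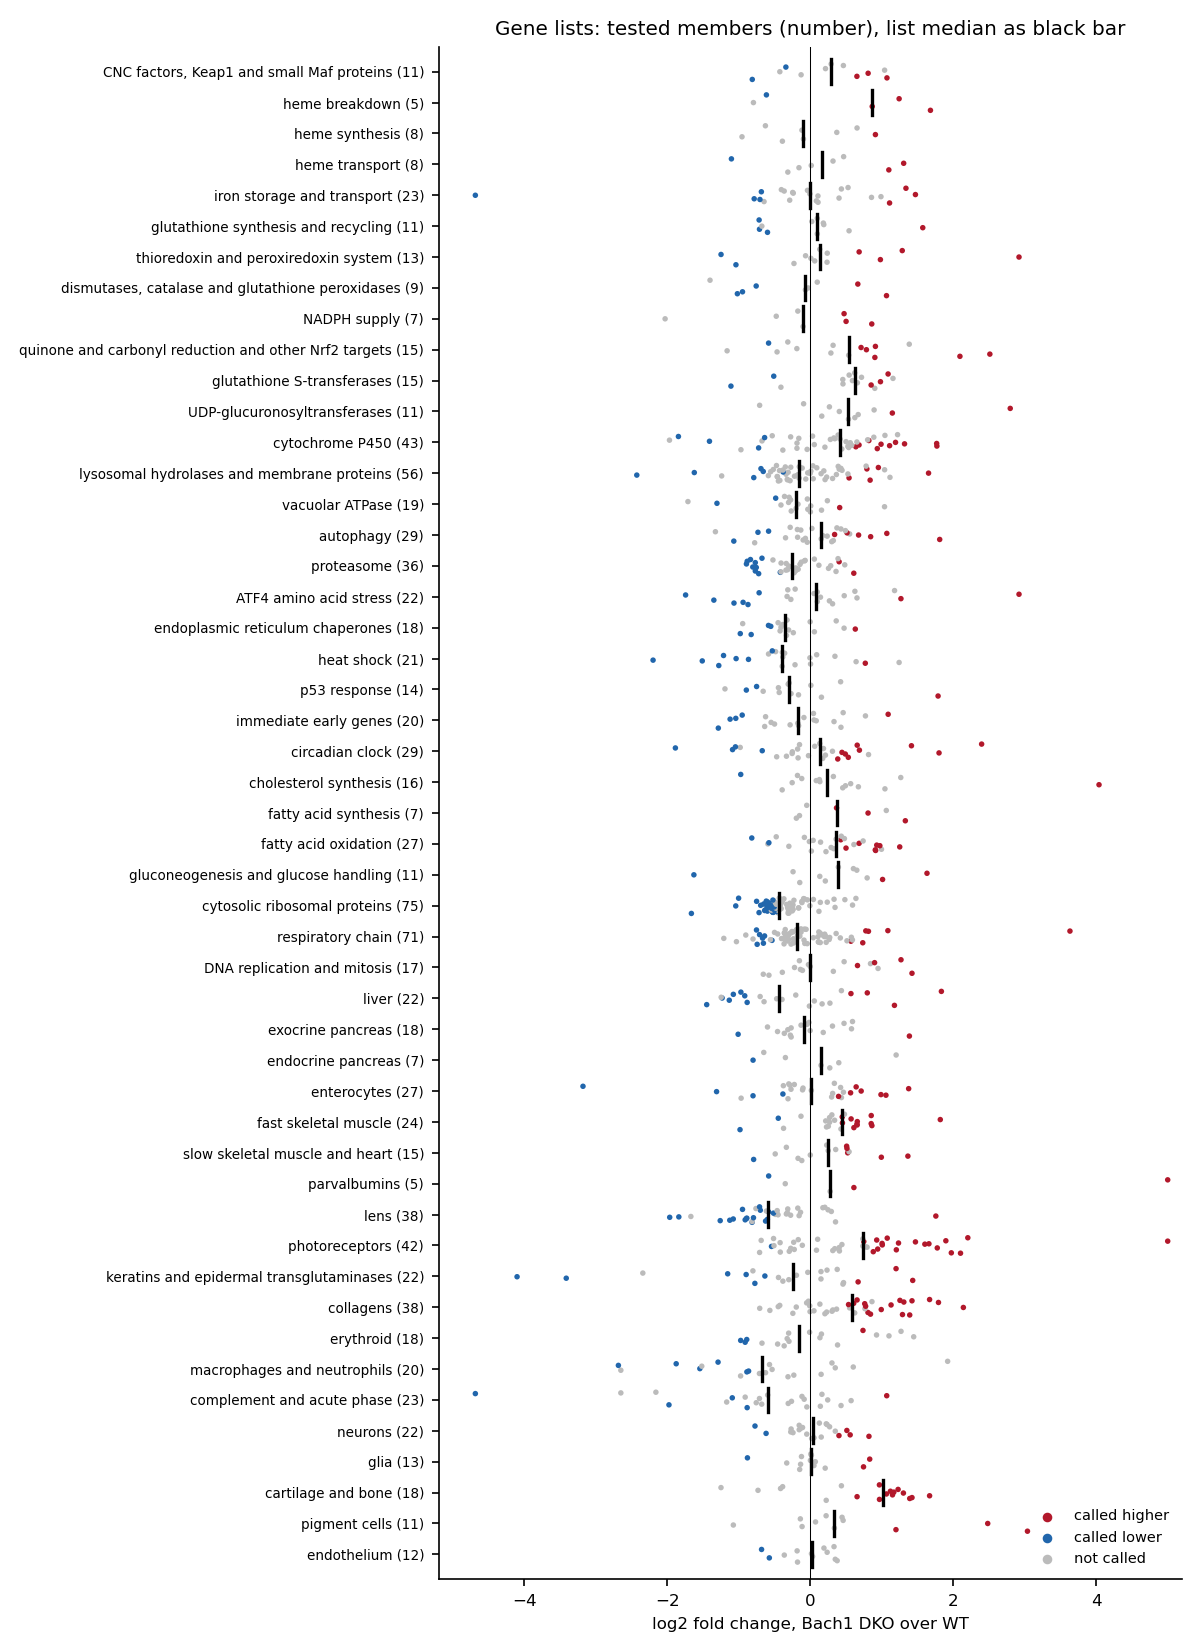
Each row is a gene list with the number of its tested members, each point is a member placed at its log2 fold change of Bach1 DKO over WT (horizontal axis, with pvalb7 and prph2b drawn at the limit of 5), coloured by call, and the black bar is the list median. Cartilage and bone, heme breakdown, photoreceptors and glutathione S-transferases have the highest medians (1.02, 0.87, 0.73 and 0.62), and macrophages and neutrophils, complement, lens, ribosomal proteins and liver the lowest (-0.67, -0.60, -0.59, -0.43 and -0.43).

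Of 18 cartilage and bone genes 12 were higher and 0 lower (66.7%, beside 23.4% of all genes), with a median of 1.02. Their summed level was 748 to 1047 CPM in Bach1 DKO pools and 421 to 527 CPM in WT pools. epyc, an epiphycan of growing cartilage, had 141, 187, 246 and 233 CPM in Bach1 DKO, against 97.2, 77.98, 89.3 and 92.4 CPM in WT (1.15, SE 0.17, adjusted p = 4.8e-06). matn4, a matrilin, had 78.4, 84.9, 85.6 and 112 CPM in Bach1 DKO, against 30.4, 44.1, 53.6 and 39.4 CPM in WT (1.12, adjusted p = 3.1e-06). sox9a, the transcription factor of chondrocytes, had 107, 96.5, 112 and 136 CPM, against 44.4, 51.5, 58.3 and 38.99 CPM in WT (1.23, SE 0.19, adjusted p = 9e-06). The pools of these genes did not overlap. The 6 members that were not called included the bone genes runx2b, sp7 and spp1. Among 38 collagens 17 were higher and 0 lower (median 0.58), for example col9a1a (1.42, adjusted p = 1.5e-06), which is in both lists, col11a1b (1.29, adjusted p = 2.5e-05) and col6a4a (1.79, adjusted p = 6.6e-07).

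In fast skeletal muscle 11 of 24 genes were higher and 2 lower (54.2%, beside 23.4% of all genes), with a median of 0.44. The summed level was 51286 to 59890 CPM in Bach1 DKO and 45540 to 50736 CPM in WT. The abundant myosin heavy chain gene myhz1.1 had 7432, 7890, 7200 and 7306 CPM in Bach1 DKO, against 4541, 4862, 4729 and 4864 CPM in WT (0.65, SE 0.13, adjusted p = 0.00036). myhz1.2 (0.85, adjusted p = 3.6e-05), the troponin gene tnnt3a (0.85, adjusted p = 0.00013) and the giant scaffold gene neb (1.82, adjusted p = 1.5e-06) rose with it, and the skeletal actin gene acta1a fell (-0.98, adjusted p = 0.0004). Slow muscle and heart had 5 higher and 1 lower calls of 15, but 1 and 1 without WT replicate 2. Among 22 keratins and epidermal transglutaminases 3 were higher and 6 lower (40.9%, beside 23.4% of all genes). krt4, an epidermal keratin, had 17.1, 9.61, 13.4 and 20.8 CPM in Bach1 DKO, against 365, 147, 259.5 and 294 CPM in WT (-4.104, SE 0.98, adjusted p = 0.0024), a difference far beyond the spread of the pools. krt94 (-1.16, adjusted p = 3.7e-05) and krt92 (-0.898, adjusted p = 0.00049) fell less, and krt1-19e rose (1.43, adjusted p = 0.00019). Keratins are a family of close copies, so that single members are uncertain.

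Of 20 macrophage and neutrophil genes 6 were lower and 0 higher, with a median of -0.67, and their sum was 111 to 136 CPM in Bach1 DKO and 161 to 365 CPM in WT. mpx, the neutrophil peroxidase, had 0.875, 5.203, 4.46 and 6.196 CPM in Bach1 DKO, against 18.3, 44.8, 11.5 and 32.9 CPM in WT (-2.69, SE 0.6, adjusted p = 0.0012). npsn, a neutrophil protease, had 3.06, 7.61, 4.01 and 5.31 CPM, against 20.2, 25.7, 8.64 and 24.9 CPM in WT (-1.88, adjusted p = 0.00065). spi1b, the PU.1 factor of myeloid cells, fell too (-1.29, adjusted p = 0.0038). Complement and acute phase genes had 4 lower calls of 23, among them c3a.6 (-1.98, adjusted p = 5.4e-05) and c9 (-1.09, adjusted p = 0.0031), and 1 higher. Erythroid genes had 3 lower and 1 higher calls of 18, or 2 and 2 without WT replicate 4, and a sum of 1272 to 1623 CPM in Bach1 DKO and 1949 to 2528 CPM in WT. The shares called, 21.7% of complement and acute phase genes and 22.2% of erythroid genes, were no larger than the 23.4% of all genes. The globin genes hbae3, with 394, 484, 425 and 369.5 CPM in Bach1 DKO, against 825, 816, 687 and 813 CPM in WT (-0.91, adjusted p = 0.011), and hbbe1.3 (-0.89, adjusted p = 0.01) were among those lower. These globins are embryonic forms with near copies.

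Of 22 liver genes 7 were lower and 4 higher. The clotting genes fgb (-1.23, adjusted p = 0.00069) and f2 (-1.14, adjusted p = 0.0013) fell. So did the plasminogen gene plg (-1.08, adjusted p = 0.00027) and the plasma protein gene ambp (-1.45, adjusted p = 0.0014). tdo2a, which starts tryptophan breakdown, rose, with 14.4, 17.2, 12.5 and 17.3 CPM in Bach1 DKO, against 5.13, 3.51, 5.04 and 3.25 CPM in WT (1.83, SE 0.31, adjusted p = 3.7e-05). The summed level of the liver list overlapped between the lines, with 5565 to 5878 CPM in Bach1 DKO and 4878 to 6840 CPM in WT, as did that of the exocrine pancreas list, with 21864 to 22838 CPM and 18031 to 26090 CPM. How far the amounts of eye, muscle, blood and skeletal tissue in a pool enter the values of other genes was not tested. Among 27 enterocyte genes 7 were higher and 4 lower (40.7%, against 23.4% of all genes), with a median of 0.01 and sums that overlapped, 3252 to 3400 CPM in Bach1 DKO and 2859 to 3452 CPM in WT. Calls were 4 higher and 2 lower of 22 for neurons, 2 and 1 of 13 for glia, 3 and 0 of 11 for pigment cells, 0 and 2 of 12 for endothelium and 0 and 1 of 7 for endocrine pancreas. In this order the shares called were 27.3%, 23.1%, 27.3%, 16.7% and 14.3%, beside 23.4% of all genes. The summed level of the endocrine pancreas list was lower in every Bach1 DKO pool, at 291 to 331 CPM in Bach1 DKO and 410.3 to 516 CPM in WT, although the median of its members was 0.15. That of the glia list was 1489 to 1579 CPM in Bach1 DKO and 1665 to 1698 CPM in WT, also with no overlap, beside a median of 0.01.

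The same line difference was measured a second time in larvae injected against keap1a and keap1b, with no library in common. Other differences of the line, or of its handling, can recur in both pairs. Agreement between the pairs therefore cannot separate these from the Bach1 mutations. Between Bach1 DKO crkeap1a/b and crkeap1a/b 4225 genes (29.9%) were called. Of the 3304 calls between Bach1 DKO and WT, 2901 (87.8%) had the same sign in the injected pair, against 69.8% of all genes tested, and 1710 were called there in the same direction, which is 51.8% of the uninjected calls and 40.5% of the injected ones. Only 43 were called in opposite directions. Genes called higher without injection had a median log2 fold change of 0.94 there and 0.58 in the injected pair, and genes called lower -0.77 and -0.56. Choosing genes by their calls without injection favours larger values there, so the sizes of these medians cannot be compared. Over all genes the median absolute log2 fold change was 0.38 without injection and 0.40 in the injected pair. tefa, per2, soul5, ATP8, hmox2a, blvra and hebp2 were among those called in both. For example, tefa had 117, 151, 160.3 and 154 CPM in Bach1 DKO crkeap1a/b, against 25.7, 28.7, 25.2 and 18.2 CPM in crkeap1a/b (2.58, SE 0.18, adjusted p = 1.5e-13). hsp90ab1 (-0.64, adjusted p = 0.0004), rplp1 (-1.003, adjusted p = 0.00028) and cryba1l1 (-1.12, adjusted p = 4.9e-05) were called lower in both. Across the 14108 genes the log2 fold changes of the 2 contrasts had a Pearson r of 0.60, a description in which genes are not independent replicates.

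**Figure D5:**
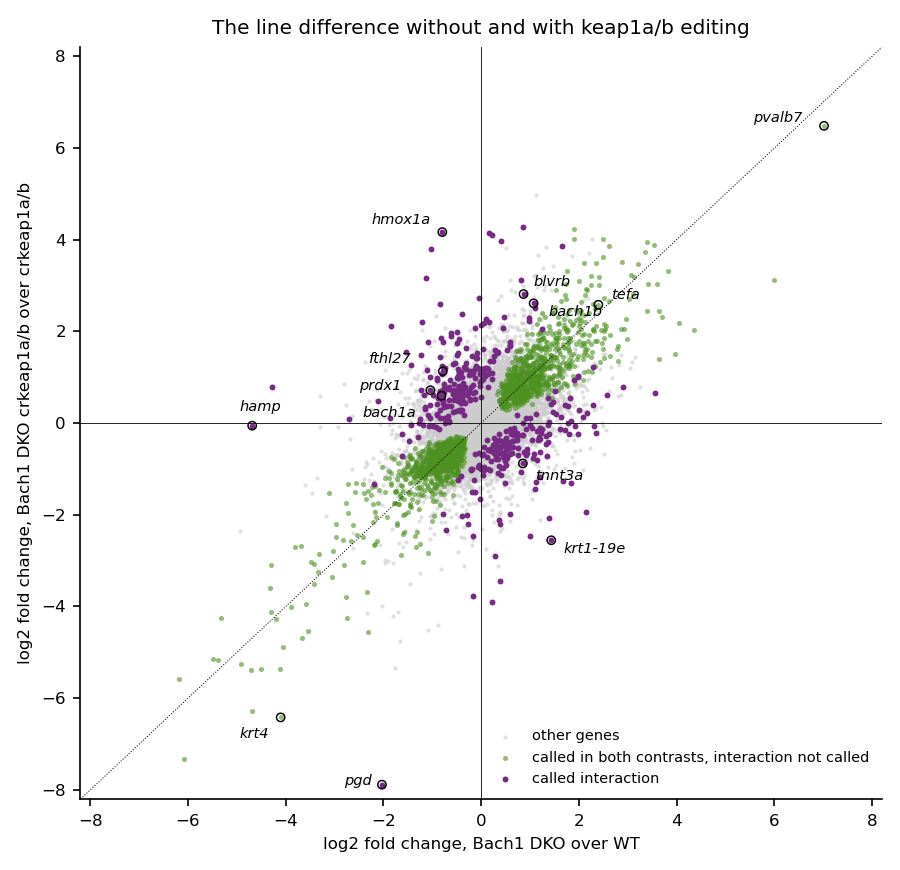
Each point is a gene, with the log2 fold change of Bach1 DKO over WT (horizontal axis) and of Bach1 DKO crkeap1a/b over crkeap1a/b (vertical axis), and the dotted line marks equal values. Of the 1753 genes called in both contrasts, 1687 have no called interaction (green) and 66 have one, of which 43 have opposite signs. The green genes all share a sign, which follows from the cuts, since opposite calls add up to a large interaction. The 66 are among the 386 with a called interaction (purple), as is hmox1a at -0.80 and 4.16.

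Whether the line difference differed between injected and uninjected pools was tested by the interaction, which is the injected line difference minus the uninjected one. It cannot separate keap1a/b editing from injection itself or from differences in batch or handling between the pairs. By this test 386 genes (2.74%) were called, 208 of them with a positive value. This count depended on the fit, with 1011 calls when only the pools compared were fitted and 865 with sample quality weights, and it lay between 210 and 458 in fits that left out 1 of the 16 pools. It was 256 without Bach1 DKO replicate 1 or 4, 247 without Bach1 DKO replicate 3, 213 without WT replicate 2 and 210 without crkeap1a/b replicate 4. Of the 3304 uninjected calls 189 (5.72%) had a called interaction, and for 137 of these the sign of the line difference turned over. The interaction subtracts the uninjected value by which these genes were chosen, which favours such turns, so this number is a description only. hmox1a had 112, 109, 107 and 133 CPM in Bach1 DKO crkeap1a/b, against 5.498, 4.47, 9.799 and 6.07 CPM in crkeap1a/b, so that the difference, not called without injection, reached 4.16 with it (interaction 4.96, SE 0.46, adjusted p = 8.5e-09). In the pairs of values that follow, the log2 fold change of the injected pair stands before the adjusted p of the interaction. blvrb (2.81, interaction adjusted p = 0.00028), abcb6a (2.51, 0.012) and bach1b (2.61, 0.00018) were raised in both settings but more with injection. fthl27, lower in Bach1 DKO without injection, had 4277, 4271, 4437 and 4357 CPM in Bach1 DKO crkeap1a/b, against 2108, 1767, 1932 and 2142 CPM in crkeap1a/b (1.13, interaction adjusted p = 1.6e-06). prdx1 (0.72, 0.0051), sqstm1 (0.67, 0.0011) and bach1a (0.596, 0.027) were likewise lower in Bach1 DKO without injection and higher with it. hamp had 27 counts in either injected group (interaction adjusted p = 0.011). For hmox2a (adjusted p = 0.97), blvra (0.72), hebp2 (0.38), abcc2 (0.85) and tefa (0.76) the interaction was not called.

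Over all genes 1.47% had a called positive interaction and 1.26% a called negative one, and in the injected pair 15.9% were called higher and 14.0% lower. Of 42 photoreceptor genes 13 had a called interaction, all negative, and in the injected pair 7 were higher and 12 lower, with rcvrn3 still higher there (0.94, interaction adjusted p = 0.0086). Of 24 fast muscle genes 11 had a called interaction, all negative, with 0 higher and 13 lower calls in the injected pair, for example tnnt3a (-0.88, interaction adjusted p = 1.7e-05) and myhz1.1 (-0.38, 0.00098). Called interactions of 4 of 20 macrophage and neutrophil genes and 4 of 18 erythroid genes were all positive, with 10 higher and 0 lower calls in the injected pair in each list. Of 18 endoplasmic reticulum chaperone genes 4 had positive ones, with calr3a (0.53, 0.0021) and calr3b (0.62, 0.0036) among them, and so did 6 of 56 lysosomal genes, with ctsla (0.49, 0.0016) and lamp1a (-0.72, 0.03), and 6 of 23 iron genes. Of 18 cartilage and bone genes 3 had negative ones, epyc (-0.16, 0.0012) and matn4 (0.199, 0.021) among them, as had 5 of 38 collagens and 5 of 22 keratins and epidermal transglutaminases. In the injected pair the lens list had 26 lower and 1 higher calls of 38, and the clock list 8 higher and 3 lower of 29, and neither list had a called interaction.

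Against Nrf2 KO, a mutant of the opposing activator, 3573 genes (25.3%) were called, 1742 higher and 1831 lower in Bach1 DKO. That comparison shares its Bach1 DKO pools with the one against WT, so the values are set side by side only. In heme breakdown 4 genes were higher and 1 lower in Bach1 DKO than in Nrf2 KO. blvra had 19.7, 12.4, 20.5 and 19.9 CPM in Bach1 DKO, against 4.34, 1.54, 0 and 2.27 CPM in Nrf2 KO (3.61, SE 0.51, adjusted p = 1.5e-06). hmox2a had 36.3, 39.2, 52.1 and 44.7 CPM, against 9.65, 11.3, 16.3 and 13.6 CPM (1.75, SE 0.24, adjusted p = 7.7e-07). hmox1a was the lower gene, with 1.75, 5.603, 4.901 and 5.75 CPM in Bach1 DKO, against 17.4, 16.9, 18.2 and 21.3 CPM in Nrf2 KO (-2.101, SE 0.35, adjusted p = 2.7e-05). In the list of quinone and carbonyl reduction and other Nrf2 targets 8 of 15 were higher and 1 lower (median 0.77). In glutathione S-transferases 6 of 15 were higher and 2 lower. Some genes that fell in Bach1 DKO were not called between Bach1 DKO and Nrf2 KO: gclc was at 43.8 ± 5.83 CPM there (0.04, adjusted p = 0.86), slc3a2b at 182 ± 15.7 CPM (-0.12, adjusted p = 0.58) and krt4 at 8.01 ± 3.39 CPM (0.96, adjusted p = 0.67). Fast muscle genes were higher in both lines than in WT, 11 of 24 in Bach1 DKO and 16 of 24 in Nrf2 KO, and lens genes lower in both, 17 and 12 of 38, in comparisons that share the WT pools.

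Genes near the mutated loci were also listed. Gene order was taken from the current RefSeq annotation, which is of another assembly than the one used for counting, so no coordinates are given. Of the 25 tested genes on either side of bach1a on chromosome 15, 7 of 50 were called (14%), 3 higher and 4 lower. Around bach1b on chromosome 10, 12 of 50 were called (24.0%), 9 higher and 3 lower. Of all genes 23.4% were called, and single chromosomes ranged between 19.6% on chromosome 9 and 27.9% on chromosome 18. Near bach1b stood sod1 and the arrestin gene arr3a, both described above in their lists, and the amino acid transporter gene slc43a2b, with 11.8, 13.6, 8.91 and 17.7 CPM in Bach1 DKO, against 1.47, 1.95, 3.96 and 1.08 CPM in WT (2.63, adjusted p = 3.9e-05). postna, a periostin (1.61, adjusted p = 0.00065), and trim47 (1.34, adjusted p = 0.0015) rose and mtus2a fell (-1.41, adjusted p = 0.0055). Near bach1a arhgap35a had the smallest adjusted p and was lower, with 111, 103, 76.2 and 75.2 CPM in Bach1 DKO, against 154, 152, 132 and 150.2 CPM in WT (-0.701, SE 0.14, adjusted p = 0.00034). The other 3 lower genes there had log2 fold changes of -0.65 to -0.47. The phosphatase gene ppm1na (1.58, adjusted p = 0.0015) and the sarcoglycan gene sgcg (1.65, adjusted p = 0.00053) rose, and a further gene was higher by 0.501. All 9 neighbours named here, sod1 and arr3a included, were also called in the same direction in the injected pair. They are a selection of the called neighbours, and the values of the other called neighbours in that pair are not given here. Of all uninjected calls 51.8% were called in the same direction in that pair.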

How the data were processed

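Whole-larva RNA of 32 pools (8 groups of 4) was read with a 3′ end library kit, and the authors deposited raw counts per gene without normalization. The submitters' processing notes name FastQC 0.72, cutadapt 1.16, STAR 2.7.5b, featureCounts 1.6.3 and limma 3.40.6 and the danRer11 build, and do not state how multimapping reads were counted. Of 16825 rows, 786 without a gene identifier were left out of library sizes and tests. They held 36.6 to 42.6% of the counts in the pools of Bach1 DKO and WT. Of 16039 identifiers 15617 matched a symbol in a RefSeq table of another assembly, used for names and gene order only.

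Groups came from the labels. Counts were analysed with limma-voom (limma 3.58.1, edgeR 4.0.16 for TMM and filterByExpr at a minimum count of 10, R 4.3.3), with 1 mean per group over all 32 libraries and contrasts for each comparison and the interaction, adjusted by Benjamini-Hochberg. All groups thus shared the estimated spread of a gene. The pooled SD of log2 CPM was 0.37 in Bach1 DKO and 0.39 in WT, but 0.52 and 0.56 in larvae injected against keap1a or keap1b alone. The fit was tested on simulated data. Alternatives were edgeR's quasi-likelihood test, DESeq2 1.42.0, RLE, no filter, only the pools compared, quality weights, kept rows, a replicate block and each pool left out. Genes, gene lists and tests were chosen with earlier results of these data known. Named were bach1a, bach1b, members of the CNC, heme, iron and antioxidant lists, up to 4 called members per direction with the smallest adjusted p in each other list, the 12 called genes per direction with the smallest adjusted p and with the largest change, silent genes and called neighbours of both loci; of these a selection is printed. Replicate pools differed by more than sampling noise, so none was counted as a duplicate. Intervals of counts cover counting error only, since no source used here mentions molecular identifiers.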

Additional observations from a re-analysis of the deposited data

Results flagged for a closer look

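The following values are given with no explanation, and their causes were not tested. Of 322 pairs of a named gene and a group of 4 pools, 19 held a pool whose distance to its neighbour exceeded Dixon's critical share of the group's range, as chance does in about 1 in 20. In Bach1 DKO replicate 2 these were bach1a (8.41 CPM), blvra (12.4 CPM) and gclc (37.6 CPM). In Bach1 DKO replicate 4 they were hamp (0.443 CPM, from its only count), mgst3a (69.9 CPM), tefa (184 CPM), hsp90aa1.1 (19.9 CPM) and neb (122 CPM). In WT replicate 2 they were nfe2l2a (510.4 CPM), sqstm1 (326 CPM), ddit4 (135 CPM), psmd11a (102 CPM) and glb1l (25.7 CPM). WT replicate 1 held 1, col9a1a (29.3 CPM), WT replicate 3 held hbae3 (687 CPM), plg (70.18 CPM) and arhgap35a (132 CPM), and WT replicate 4 held prph2b (0.722 CPM) and trim47 (7.22 CPM).

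For 34 named genes the line difference with injection differed from that without by the interaction test (limma-voom, adjusted p below 0.05), given as the injected minus the uninjected log2 fold change. Of the CNC, heme and iron genes these were hmox1a (4.96), hamp (4.63), blvrb (1.95), fthl27 (1.92), bach1b (1.54), bach1a (1.41), abcb6a (1.41) and tfr1b (1.06). Of the antioxidant and conjugation genes they were prdx1 (1.76), sqstm1 (1.26), gsto2 (1.24) and pgd (-5.85). pgd had 1 count in Bach1 DKO crkeap1a/b and 635 in crkeap1a/b, a ratio of crkeap1a/b to Bach1 DKO crkeap1a/b of 640 (exact 95% interval 114 to 25307), beside 0 counts in Bach1 DKO and 14 in WT, and these few counts are all that the uninjected value rests on. The chaperone and lysosome genes were calr3b (1.599), calr3a (1.36), ctsla (1.28), lamp1a (0.90) and hsp90aa1.2 (0.87). Blood, liver and secreted genes were npsn (1.98), fgb (1.96), hbbe1.3 (1.43), igfbp1b (1.39), hbae3 (1.33), plg (1.01) and ptgdsb.1 (-0.95). Eye, skeletal, muscle and skin genes had negative values: rcvrn3 (-0.96), arr3b (-0.97), matn4 (-0.92), col9a1a (-1.01), epyc (-1.31), myhz1.1 (-1.03), myhz1.2 (-1.12), neb (-1.27), tnnt3a (-1.73) and krt1-19e (-3.99).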

How the results depend on the processing

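The count of 3304 genes called between Bach1 DKO and WT was 3200 with edgeR's quasi-likelihood test, 3342 with DESeq2, 3290 with RLE size factors, 3303 with no filter, 3851 of 12268 genes when only these 8 pools were fitted, 4109 with sample quality weights and 3417 with rows without a gene identifier kept, and 2464 (without WT replicate 1) to 3119 (without WT replicate 3) with 1 pool left out. With the replicate number as a block it was 3199, but same-numbered pools correlated by only 0.008 to 0.071 in their deviations, so the numbers did not pair them. Leave-one-out ranges were 3406 to 3923 for the 4225 calls of the injected pair, 1417 to 1589 for the 1710 calls shared in direction, 2968 to 3128 for the 3573 calls against Nrf2 KO, and 24 to 29 for the 26 of 49 lists with more higher than lower calls. The 386 interaction calls were the least stable: 1011 with only the pools compared, 865 with quality weights and 210 to 458 with 1 pool left out. bach1a lost its call with no filter (-0.81, adjusted p = 0.051) and had -0.95 to -0.69 with 1 pool left out. bach1b kept its call at 0.99 to 1.24. With 0 counts required, 3 of the 6 silent genes remained. Of the 161 named genes 146 were called, many of them chosen for a small adjusted p, which favours keeping a call. Of 2573 alternative values for the 161 genes, 0 turned over in sign where the gene was called in either fit. Sign changes of genes called in neither fit were not counted. By call, 2537 values kept their status, 28 lost a call (8 genes, named above) and 8 gained one (fth1a, keap1b, pgd, slc48a1a and tfr1b). fth1a, keap1b, slc48a1a and tfr1b gained theirs with only the pools compared. slc48a1a was also called with quality weights, and tfr1b without Bach1 DKO replicate 3. pgd gained its calls with edgeR's test and DESeq2. In 16 lists the side with more calls changed, or the balance became or left a tie, in at least 1 alternative. Among them were neurons (4 higher and 2 lower, or 1 and 3 without WT replicate 1) and iron (3 and 4, or 3 and 2 without WT replicate 2). The planned motif search in promoters was not run. Depth limits what can be said of low genes such as gclm, gsr and slc7a11, which lay under 10 CPM.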
